A study of Mus musculus with 8 samples.

Results

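Nitric oxide (NO) and cGMP signaling was described with 9 genes of the 46040 in the count table: the NO synthases *Nos1* and *Nos3*, the cGMP-dependent protein kinase *Prkg1*, its substrate *Vasp*, and the cyclic nucleotide phosphodiesterases *Pde1c*, *Pde2a*, *Pde3a*, *Pde5a* and *Pde9a*. They were chosen by name as rows of the table, with earlier results of these data known. The 8 libraries come from LV tissue of male C57BL/6 mice, 5 to 7 months old, all of which received angiotensin II (angII) at 0.1 mg/kg/h by osmotic minipump for 14 days to raise the pressure load. Of these, 4 libraries are tagged wildtype (littermate controls) and 4 are tagged VEGFR1_TK -/-, a line in which *Flt1*, the gene of VEGFR-1, lacks its intracellular tyrosine kinase domain in every cell of the animal. No library without angII was part of the comparison, so that it sets one genotype against the other under pressure overload. The submitted sample titles give each library the opposite genotype from its tag and its library name. The tag and the library name were followed. The groups are therefore called control-tagged on the one hand and VEGFR-1 TK-/- tagged on the other, and every difference below is the latter minus the former. If the titles hold, each sign turns. Library names also carry the word cardiomyo although the source is given as LV tissue, and endothelial, smooth muscle, pericyte and fibroblast markers had counts in every library.

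NO synthases make NO from L-arginine. NO activates soluble guanylyl cyclase, which forms the second messenger cGMP, and cGMP activates the kinase encoded by *Prkg1*, which relaxes smooth muscle and acts on contraction and growth of cardiomyocytes. Phosphodiesterases end the signal by hydrolysing cGMP, some of them cGMP alone and others also cAMP. VEGF is known to activate the endothelial NO synthase through its receptors, and the comparison asks whether RNAs of this pathway differ in the pressure-loaded LV when VEGFR-1 cannot signal through its kinase domain.

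Several of these genes are paralogs, so their coding sequences were compared first to see which stretches a sequencing read could share between them. In 36 pairs of members, the longest identical run of coding bases was between 10 and 23 bases, and 1 pair had a run over 15. No 50-base window along the transcripts of a member was found in a paralog from the NO synthase, phosphodiesterase, cGMP kinase or Ena/VASP families. The exception by name is *Pde2a*, of whose windows 98.07% occur in other annotated genes, nearly all in a second model of the same locus that GENCODE M21 also names *Pde2a* and that has no row in the count table. The 3 pairs with the longest runs are shown with the shared run in capitals, 5′ to 3′ on the coding strand (GENCODE M21, GRCm38). The NO synthases share 23 bases in the part that codes for the reductase domain, at chr5:117936446-117936508 (+ strand, exon 21 of 29 of *Nos1*) and chr5:24380200-24380262 (+ strand, exon 19 of 26 of *Nos3*).
Nos1: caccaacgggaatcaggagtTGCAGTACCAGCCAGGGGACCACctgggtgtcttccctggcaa
Nos3: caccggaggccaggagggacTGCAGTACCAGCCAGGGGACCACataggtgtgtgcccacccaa
The phosphodiesterases *Pde2a* and *Pde9a* share 15 bases that code for the metal-binding motif of the catalytic domain, at chr7:101508462-101508513 (+ strand, exon 25 of 32) and chr17:31460210-31460261 (+ strand, exon 12 of 19).
Pde2a: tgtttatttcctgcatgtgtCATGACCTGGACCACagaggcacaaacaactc
Pde9a: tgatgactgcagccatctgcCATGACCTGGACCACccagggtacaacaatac
*Pde1c* and *Pde9a* share another run of 15 bases, at chr6:56157080-56157134 (- strand, exon 10 of 19) and chr17:31461606-31461660 (+ strand, exon 13 of 19).
Pde1c: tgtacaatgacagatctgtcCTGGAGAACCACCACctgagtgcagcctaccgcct
Pde9a: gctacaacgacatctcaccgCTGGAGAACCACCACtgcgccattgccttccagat

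Between 11449137 and 16239670 reads per library were counted on genes. The filter kept 13542 genes, those that reached a CPM (counts scaled to the library size) of 1 in 2 libraries or more, for the quasi-likelihood test of edgeR. A gene was called at an FDR (Benjamini-Hochberg over all genes tested) under 0.1 combined with a change of 1.5-fold or more in either direction. *Flt1* was the only gene called, which is 0.00738% of the genes tested. It lay at 56.9 to 84.3 normalized CPM in the control-tagged libraries and at 144 to 170 in the VEGFR-1 TK-/- tagged libraries (log2 fold change 1.19, SE 0.12, FDR 0.00808). The count covers the whole gene and does not separate the part that codes for the kinase domain, so it is no check of the genotype. The study describes the replicates as LVs of each genotype, whereas the labels tie no library to an animal. The p-values set the group difference against the variation between these libraries.

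None of the 9 members was called: 8 passed the filter and were tested, and *Nos1* did not pass it. The lowest FDR was 0.484. Without adjustment, *Nos3* and *Pde9a* had a p under 0.05, both with the lower mean in the VEGFR-1 TK-/- tagged group, as had 5.64% of all genes tested at that p. Of the 8 tested, 6 had a lower and 2 a higher mean level, with a median log2 fold change of -0.23, against -0.00 over all genes, of which 50.3% were lower. The groups overlapped in all 9 members, and 4.98% of all genes tested had groups that did not overlap. The likelihood ratio test of edgeR, which calls 0.391% of the genes tested, called none of the members, nor did DESeq2.

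**Figure D1:**
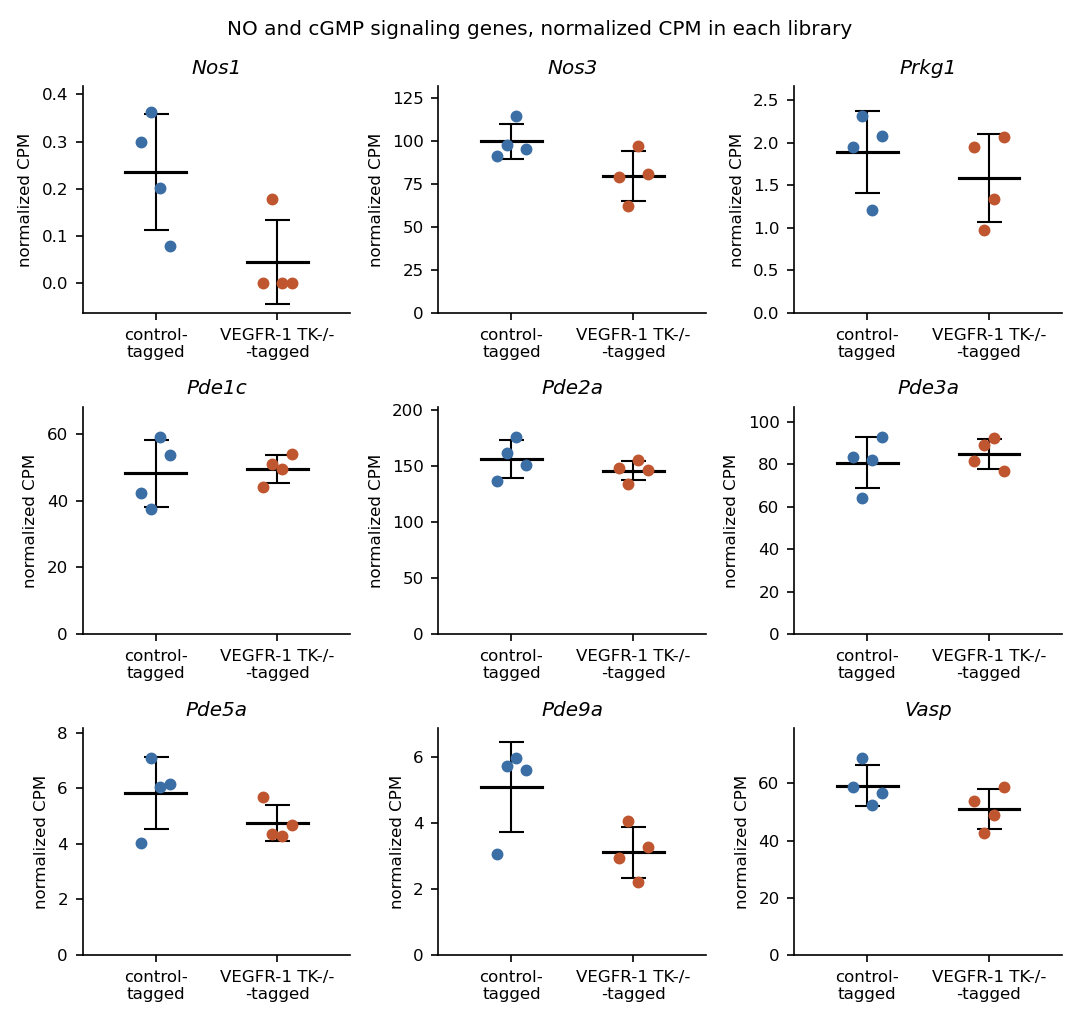
Normalized CPM (vertical axes, different for each gene) of the 9 genes in each of 4 control-tagged (blue) and 4 VEGFR-1 TK-/- tagged (orange) libraries, with the mean (bar) and SD (whiskers). The groups overlap in every panel, and *Nos1* is at 0 in 3 libraries.

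*Nos3*, the NO synthase of endothelial cells, was measured with 699 to 1703 reads per library. It stood at 91.2, 97.8, 115 and 95.7 normalized CPM in control-tagged replicates 1 to 4 and at 79.1, 62.1, 97.1 and 81.1 in VEGFR-1 TK-/- tagged replicates 1 to 4. The lowest 3 libraries are VEGFR-1 TK-/- tagged, and replicate 3 of that group lies among the control-tagged values. The means were 99.8 ± 10.2 and 79.8 ± 14.3 (SD, n = 4 each), a log2 fold change of -0.32 (SE 0.13, 95% interval -0.61 to -0.04), or 20.0% lower. The unadjusted p of edgeR's quasi-likelihood test was 0.0300 with an FDR of 0.521, and the exact 2-sided permutation test gave p = 0.0857, where the smallest p that 4 against 4 libraries allow is 0.0286. Leaving out 1 library, either replicate 3 among the control-tagged or replicate 1, 2 or 4 among the VEGFR-1 TK-/- tagged ones, took the quasi-likelihood p above 0.05, to between 0.0508 and 0.0856. *Nos3* (ENSMUSG00000028978) lies at chr5:24364810-24384474 on the + strand, on the chromosome of *Flt1* at a distance of 123.177 Mb, and its exons overlap those of 2 genes on the opposite strand, *Gm15587* by 1040 bases and *Atg9b* by 294. These had 0 to 3 and 13 to 25 reads per library.

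Endothelial markers, taken as a sum, had a lower mean in the VEGFR-1 TK-/- tagged group, as had *Nos3*. The sum of 6 endothelial genes lay at 1288 to 1617 normalized CPM in the control-tagged and at 1174 to 1303 in the VEGFR-1 TK-/- tagged libraries (log2 ratio of the means -0.27, exact 2-sided permutation p = 0.0571). Of the 6 genes in the sum, 5 were lower, against 50.3% of all genes tested. At an unadjusted p under 0.05, 3 were lower, against 5.64% of all genes. *Nos3* divided by that sum was -3.91 ± 0.11 on the log2 scale in the control-tagged and -3.97 ± 0.25 in the VEGFR-1 TK-/- tagged libraries (SD, n = 4 each). The difference was -0.07, within the spread of either group (exact 2-sided permutation p = 0.571, adjusted p = 0.735 over 9 ratios and shares). It ranged from -0.18 without VEGFR-1 TK-/- tagged replicate 3 to 0.02 without replicate 2 of that group. In whole tissue, fewer cells of a type and less RNA per cell cannot be told apart.

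**Figure D2:**
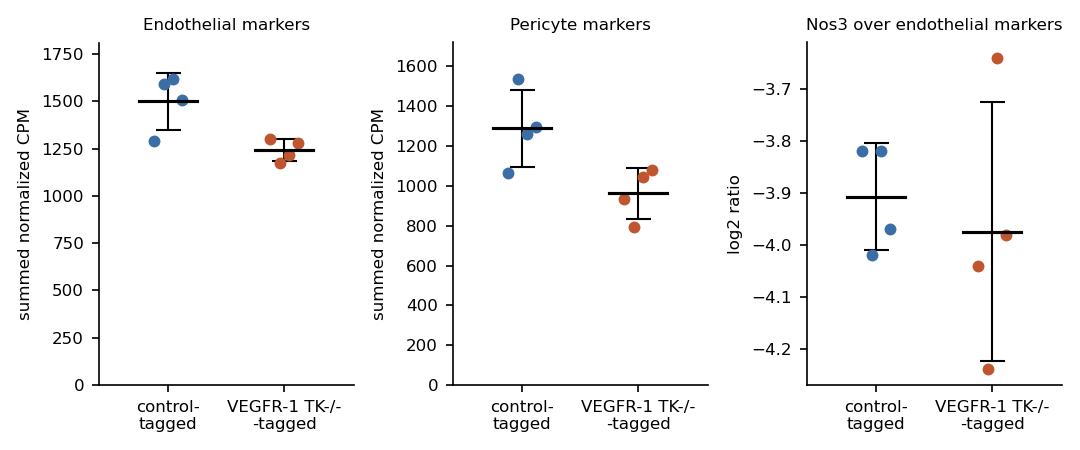
Summed normalized CPM of 6 endothelial and 5 pericyte markers (left and middle) and the log2 ratio of *Nos3* to the endothelial sum (right; the axis does not start at 0) in each library, with mean (bar) and SD (whiskers). Both sums have a lower mean in the VEGFR-1 TK-/- tagged group with 1 control-tagged library among its values, whereas the ratio overlaps widely.

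*Nos1* encodes the neuronal NO synthase, which in the heart is found in cardiomyocytes and nerves, and it was close to the limit of detection. Control-tagged replicates 1 to 4 had 4, 5, 3 and 1 reads on it (0.299, 0.363, 0.202 and 0.0800 normalized CPM), and VEGFR-1 TK-/- tagged replicates 1 to 4 had 0, 2, 0 and 0 reads, or 0.178 normalized CPM in replicate 2. In the 3 libraries without a read, a count of 0 allows up to 0.237 to 0.244 normalized CPM (3 reads). Summed over libraries these are 13 against 2 reads, a ratio of 5.82 of the control-tagged over the VEGFR-1 TK-/- tagged group with a counting interval of 1.32 to 53.1 (95%), which covers counting error only. The exact 2-sided permutation test over libraries gave p = 0.0571. When the filter on low counts was lifted, edgeR's quasi-likelihood test gave *Nos1* an unadjusted p of 0.0290 and an FDR of 0.605. *Nos1* (ENSMUSG00000029361, chr5:117781032-117958840, + strand) is 29.603 Mb from *Flt1*, and 1.80% of its 50-base windows occur in other genes. Its log2 ratio to *Nos3*, which with so few reads depends on the prior count of 2, was -8.05 ± 0.54 and -8.72 ± 0.79 (SD, n = 4 each; exact 2-sided permutation p = 0.229).

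Among 18 other genes of NO synthesis, which cover partners of the synthases, their cofactor tetrahydrobiopterin, the supply of arginine and the breakdown of inhibitors, 16 were tested, none was called, and 4 had an unadjusted p under 0.05, all lower. Of all genes tested, 5.64% were lower at that p. The inducible synthase *Nos2* lay at 15.9, 27.1, 22.4 and 17.2 normalized CPM in the control-tagged and at 15.4, 11.4, 12.2 and 15.6 in the VEGFR-1 TK-/- tagged libraries, groups that do not overlap (log2 fold change -0.60, SE 0.18, unadjusted p of the quasi-likelihood test 0.00616, FDR 0.453). *Cav1*, the caveolin that binds and restrains the endothelial synthase, lay at 363 to 501 and at 314 to 377 normalized CPM, with a log2 fold change of -0.37. *Ddah2*, by name a dimethylarginine dimethylaminohydrolase, and *Asl*, an enzyme of arginine synthesis, had log2 fold changes of -0.32 and -0.42. The genes of the list were 9 lower and 7 higher, with a median of -0.15. The enzymes of tetrahydrobiopterin synthesis were not among those at a p under 0.05.

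The soluble guanylyl cyclase, the receptor of NO, is a dimer of an alpha and a beta subunit. The beta subunit *Gucy1b1* (named *Gucy1b3* in the table) lay at 17.4, 28.7, 24.9 and 24.4 normalized CPM in the control-tagged and at 19.7, 13.8, 18.1 and 20.9 in the VEGFR-1 TK-/- tagged libraries. Control-tagged replicate 1 falls among the VEGFR-1 TK-/- tagged values (log2 fold change -0.40, SE 0.16, unadjusted p of the quasi-likelihood test 0.0338, FDR 0.522). Its partner *Gucy1a1* (*Gucy1a3* in the table) lay at 15.2 to 27.6 and at 13.9 to 30.5 normalized CPM with a log2 fold change of -0.15 (SE 0.24, FDR 0.880). The second alpha subunit *Gucy1a2* had 2 to 9 reads per library and was not tested. With the natriuretic peptide receptors, which make cGMP at the membrane, 4 of 5 cyclase genes were tested, all had a lower mean, 1 at an unadjusted p under 0.05 (1 of 4, against 5.64% of all genes), and none was called.

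*Prkg1* encodes the main cGMP-dependent kinase of smooth muscle and is also present in cardiomyocytes. It had 11 to 32 reads per library, so that counting error alone gives a coefficient of variation of 19.8% in the control-tagged and 22.6% in the VEGFR-1 TK-/- tagged group. Its values were 1.95, 2.32, 1.21 and 2.08 normalized CPM in control-tagged replicates 1 to 4 and 1.95, 0.977, 1.34 and 2.07 in VEGFR-1 TK-/- tagged replicates 1 to 4. Each group holds both high and low libraries. The log2 fold change was -0.24 with a 95% interval of -0.91 to 0.43 (SE 0.31, FDR 0.847), so a 1.5-fold lower level is within the interval. Relative to the sum of 6 smooth muscle markers, the log2 ratio differed by -0.14 (exact 2-sided permutation p = 0.771), and by between -0.52 without control-tagged replicate 3 and 0.07 without control-tagged replicate 2. The gene (ENSMUSG00000052920) spans 1200.5 kb at chr19:30564489-31765033 on the - strand.

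*Vasp* encodes an actin-associated protein of adherent cells and platelets that the kinase phosphorylates, and its phosphorylation is a common readout of the pathway, which an RNA level does not show. It lay at 58.8, 69.0, 52.3 and 56.6 normalized CPM in control-tagged replicates 1 to 4 and at 53.9, 42.5, 48.8 and 58.6 in VEGFR-1 TK-/- tagged replicates 1 to 4. The lowest 2 libraries are VEGFR-1 TK-/- tagged, and replicate 4 of that group exceeds 2 control-tagged libraries. The means were 59.2 ± 7.08 and 51.0 ± 6.89 (SD, n = 4 each; log2 fold change -0.21, SE 0.12, 95% interval -0.48 to 0.05, FDR 0.620). Its unadjusted p was under 0.05 in 2 of 16 alternative fits, with FDRs between 0.481 and 0.947 over the 16. *Vasp* (ENSMUSG00000030403) lies at chr7:19256929-19271817 on the - strand and is the only member without a 50-base window shared with another gene.

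The relatives of *Vasp* and other targets were on the same list of 11 genes, of which 8 were tested, 7 lower and 1 higher, and none called. At an unadjusted p under 0.05, 3 were lower (37.5%, against 5.64% of all genes) and 1 was higher. The other Ena/VASP genes were both at an unadjusted p under 0.05. *Evl* lay at 34.7 to 44.5 against 26.7 to 33.0 normalized CPM (log2 fold change -0.32, SE 0.11, FDR 0.468) with groups that do not overlap, and *Enah* at 255 to 347 against 211 to 276 (log2 fold change -0.28, SE 0.12, FDR 0.554). *Irag1* (*Mrvi1* in the table), through which the kinase restrains calcium release in smooth muscle, lay at 19.8 to 25.8 against 13.4 to 19.2, again without overlap (log2 fold change -0.34, SE 0.14, FDR 0.521). *Pln*, phospholamban, the brake of the calcium pump of the sarcoplasmic reticulum, was the only one of these at a p under 0.05 in the other direction, where 3.32% of all genes tested are: 4607, 3817, 3834 and 4648 against 4872, 5495, 5562 and 5136 normalized CPM (log2 fold change 0.32, SE 0.14, FDR 0.541), with groups that do not overlap.

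*Pde9a*, a phosphodiesterase that hydrolyses cGMP alone and with high affinity, had the lowest unadjusted p among the members. It lay at 3.07, 5.73, 5.99 and 5.60 normalized CPM in control-tagged replicates 1 to 4 and at 2.93, 4.08, 2.21 and 3.27 in VEGFR-1 TK-/- tagged replicates 1 to 4, from 28 to 89 reads per library. Of the control-tagged libraries 3 lie above every VEGFR-1 TK-/- tagged library, and replicate 1 lies among them. The means were 5.10 ± 1.36 and 3.12 ± 0.777 (SD, n = 4 each), a log2 fold change of -0.71 (SE 0.25, 95% interval -1.26 to -0.16), or 38.9% lower. The quasi-likelihood test gave an unadjusted p of 0.0160 and an FDR of 0.484, and the exact 2-sided permutation test gave p = 0.0857. The unadjusted p was under 0.05 in 16 of 16 alternative fits, with FDRs between 0.268 and 0.941. *Pde9a* (ENSMUSG00000041119) lies at chr17:31386210-31476310 on the + strand, and 2 antisense genes of the later annotation share 138 and 157 exon bases with it.

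*Pde5a*, the other phosphodiesterase specific for cGMP and the target of sildenafil, is known from smooth muscle and from the stressed heart. Control-tagged replicates 1 to 4 had 4.04, 7.11, 6.05 and 6.16 normalized CPM and VEGFR-1 TK-/- tagged replicates 1 to 4 had 5.69, 4.35, 4.27 and 4.70, from 49 to 98 reads per library. The lowest of all 8 is control-tagged replicate 1 (means 5.84 ± 1.29 and 4.75 ± 0.652, SD, n = 4 each; log2 fold change -0.30, SE 0.20, 95% interval -0.73 to 0.13, FDR 0.683). With 1 library left out, the log2 fold change ranged from -0.44 without that library (unadjusted p of the quasi-likelihood test 0.0307, FDR 0.456) to -0.19 without control-tagged replicate 2 (p 0.374, FDR 0.802). Relative to the sum of smooth muscle markers, the log2 ratio differed by -0.16 (exact 2-sided permutation p = 0.571), and by 0.05 without control-tagged replicate 2. The gene (ENSMUSG00000053965) lies at chr3:122728947-122859374 on the + strand.

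*Pde2a*, which hydrolyses both cyclic nucleotides and is itself stimulated by cGMP, lay at 136, 161, 176 and 151 normalized CPM in control-tagged replicates 1 to 4 and at 148, 134, 155 and 146 in VEGFR-1 TK-/- tagged replicates 1 to 4. Only control-tagged libraries exceed 155, but the control-tagged group also holds the second lowest value. The log2 fold change was -0.10 (SE 0.10, 95% interval -0.32 to 0.12, FDR 0.801), an interval that does not reach a 1.5-fold change in either direction. The identifier of the table (ENSMUSG00000030653) is named *Gm45837* in GENCODE M21, where it spans chr7:101410886-101512819 on the + strand and contains a separate model named *Pde2a*. It also shares 150 exon bases with *Arap1* on the same strand, which had 416 to 932 reads per library.

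*Pde3a*, a cAMP phosphodiesterase of cardiomyocytes that cGMP inhibits, and *Pde1c*, a calcium-activated enzyme for both cyclic nucleotides that is abundant in cardiomyocytes, had the smallest differences. *Pde3a* lay at 83.5, 64.1, 82.0 and 92.9 normalized CPM in the control-tagged and at 81.3, 89.1, 92.3 and 76.7 in the VEGFR-1 TK-/- tagged libraries (log2 fold change 0.07, SE 0.12, 95% interval -0.18 to 0.33, FDR 0.881). *Pde1c* lay at 42.3, 37.5, 59.2 and 53.8 and at 44.0, 50.9, 49.5 and 54.0 (log2 fold change 0.04, SE 0.14, 95% interval -0.26 to 0.34, FDR 0.952). For both, the VEGFR-1 TK-/- tagged values fall within the control-tagged range, and the intervals do not reach a 1.5-fold change. The sign of the *Pde1c* difference turned when replicate 1 or 2 among the control-tagged or replicate 4 among the VEGFR-1 TK-/- tagged libraries was left out, to values between -0.06 and -0.00, and that of *Pde3a* turned to -0.02 without control-tagged replicate 2. *Pde3a* (ENSMUSG00000041741) lies at chr6:141249269-141507448 on the + strand, where the antisense gene *Gm28523* (21 to 50 reads per library) shares 741 exon bases, and *Pde1c* (ENSMUSG00000004347) at chr6:56069804-56569103 on the - strand.

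**Figure D3:**
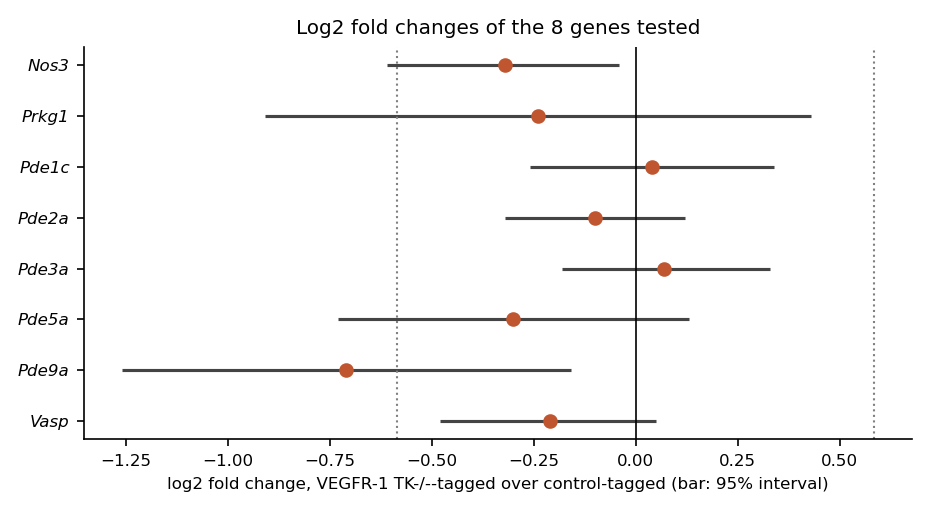
Log2 fold change of the 8 genes tested (points), VEGFR-1 TK-/- tagged over control-tagged, with the 95% interval (lines); dotted lines mark a 1.5-fold change in both directions. The intervals of *Nos3* and *Pde9a* lie below 0, and that of *Prkg1*, the least counted gene of the 8, is the widest.

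Levels were compared between genes as normalized CPM per kilobase of exon, averaged over all 8 libraries. *Pde2a* was the highest at 36.5 ± 3.27 (SD, n = 8), followed by *Nos3* at 21.7 ± 3.80 and *Vasp* at 21.0 ± 2.99, whose order is not settled, since *Nos3* was above *Vasp* in 3 of 8 libraries. Next came *Pde3a* at 6.50 ± 0.741 and *Pde1c* at 2.44 ± 0.356, with no overlap between neighbours. *Pde9a* at 1.16 ± 0.416 was above *Pde5a* at 0.539 ± 0.113 in 8 of 8 libraries, although their ranges overlap. This order rests on the division by exon length, 3.54 kb for *Pde9a* and 9.83 kb for *Pde5a*. In reads not divided by length, *Pde5a* (49 to 98) was above *Pde9a* (28 to 89) in all 8 libraries. *Prkg1* at 0.160 ± 0.0450 and *Nos1* at 0.0126 ± 0.0128 were the lowest. The scale divides by the union of all annotated exons, which makes genes with long untranslated exons, such as *Pde1c* with 20.07 kb, look lower than genes like *Pde9a* with 3.54 kb.

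On the same scale, *Pde2a* held 32.6% of the summed level of 19 genes named as phosphodiesterases and ranked above *Pde4a*, *Pde6d* and *Pde8a*, and the 5 members together held 38.8% to 45.4% in each library. *Pde6d* encodes a prenyl-binding protein. In a sum of the 18 genes without it, chosen after the values were seen, *Pde2a* held 37.1% and the 5 members 45.4% to 51.1%. Within the 5, the share of *Pde9a* was 2.94% ± 0.619 in the control-tagged and 1.95% ± 0.563 in the VEGFR-1 TK-/- tagged libraries (SD, n = 4 each; exact 2-sided permutation p = 0.0857, adjusted p = 0.707 over 9 ratios and shares). The shares of *Pde2a* were 77.7% ± 2.45 and 77.0% ± 1.74, and those of *Pde3a* 13.2% ± 2.37 and 14.6% ± 1.23. *Pde1c* held 4.94% and 5.41% and *Pde5a* 1.22% and 1.06%. The size of these shares depends on the division by exon length, 4.14 kb for *Pde2a* against 12.74 kb for *Pde3a*. In reads, control-tagged replicate 1 had 1819 on *Pde2a*, 1116 on *Pde3a* and 565 on *Pde1c*, so that *Pde2a* holds a smaller share of undivided counts. The group differences of the 5 shares kept their sign without the division, with -2.22 percentage points for *Pde2a* and -0.622 for *Pde9a*. The adjusted p-values of the 9 permutation tests lay between 0.707 and 0.771.

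**Figure D4:**
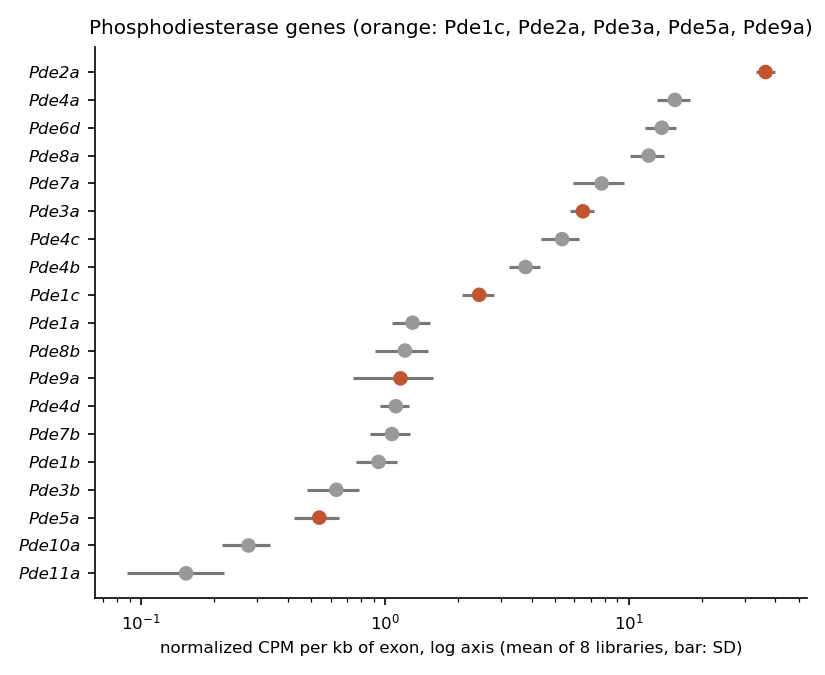
Level of 19 genes named as phosphodiesterases, *Pde6d* included, as normalized CPM per kilobase of exon (log axis; mean of 8 libraries, lines show the SD), with *Pde1c*, *Pde2a*, *Pde3a*, *Pde5a* and *Pde9a* in orange. *Pde2a* is the highest at 36.5, and *Pde9a* and *Pde5a*, the enzymes specific for cGMP, lie in the lower part.

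Of 17 other phosphodiesterases, 14 were tested, 10 lower and 4 higher with a median log2 fold change of -0.20, and none was called. The list includes *Pde6d*, which carries the family name but encodes a prenyl-binding protein. At an unadjusted p under 0.05, 3 were lower (21.4%, against 5.64% of all genes) and 1 was higher (7.14%, against 3.32%). These 4 belong to families that hydrolyse cAMP. *Pde7a* lay at 50.8, 50.2, 52.9 and 48.2 against 79.6, 78.0, 73.2 and 48.1 normalized CPM (log2 fold change 0.47, SE 0.14, unadjusted p of the quasi-likelihood test 0.00654, FDR 0.453). VEGFR-1 TK-/- tagged replicate 4 is the lowest of all 8 and the other 3 libraries of its group are the highest. *Pde8b* at 6.51 to 10.1 against 4.97 to 7.09 normalized CPM had a log2 fold change of -0.51, *Pde7b* at 12.5 to 17.1 against 8.97 to 13.6 one of -0.36, and *Pde4b* at 39.4 to 49.6 against 31.6 to 39.8 one of -0.29. The 2 transporters that export cyclic nucleotides were tested without a call and without a p under 0.05.

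Over all 53 other genes of the pathway, 44 were tested, none was called by the quasi-likelihood test, the likelihood ratio test or DESeq2, and the lowest FDR was 0.453. The tested genes were 31 lower and 13 higher, with a median log2 fold change of -0.16. Over all genes 50.3% were lower, with a median of -0.00. At an unadjusted p under 0.05, 11 were lower (11 of 44, against 5.64% of all genes) and 2 higher (4.55%, against 3.32%). Of these 11, *Nos2*, *Cav1*, *Asl*, *Gucy1b1*, *Irag1*, *Evl*, *Pde7b* and *Pde8b* were lowest in VEGFR-1 TK-/- tagged replicate 2. *Ddah2*, *Enah* and *Pde4b* were lowest in another library of that group. Over all genes, 1213 had an unadjusted p under 0.05 by the quasi-likelihood test, and 707 without that replicate 2. Leaving out any other library gave 837 to 1356. The count of 11 was not repeated without it. In 4 of the 44 the groups did not overlap (9.09%, against 4.98%). These genes were listed with earlier results of the same libraries known, and their counts describe these libraries only.

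**Figure D5:**
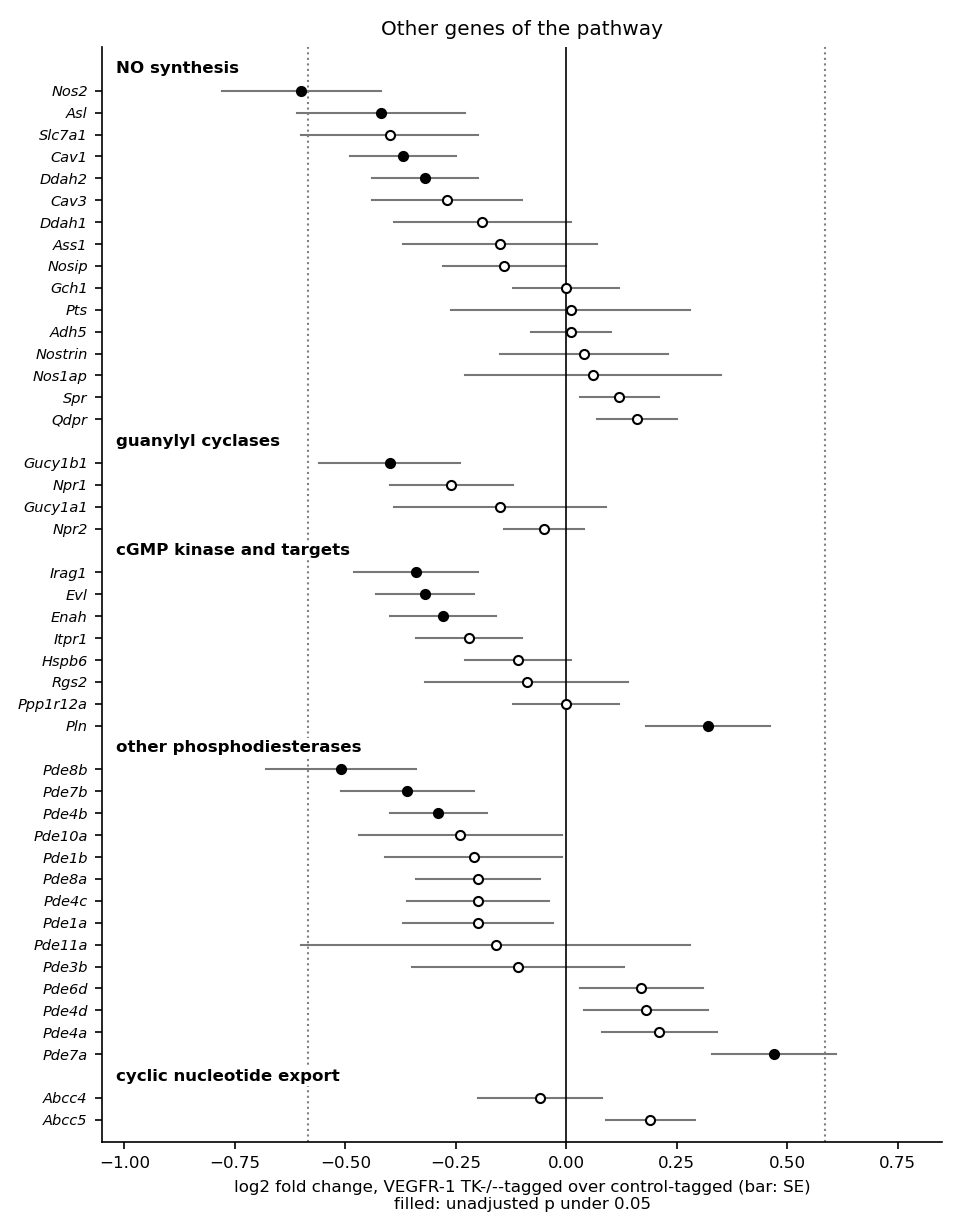
Log2 fold change (points) with SE (lines) of the 44 other pathway genes tested, in 5 lists; filled points have an unadjusted p under 0.05 and dotted lines mark a 1.5-fold change. Of 44 genes 31 have a value below 0, the smallest of them drawn at 0 after rounding, and the filled points are 11 below and 2 above it.

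Other cell types were followed with marker lists, since several members are RNAs of vessels. The 5 pericyte markers summed to 1066 to 1536 normalized CPM in the control-tagged and to 792 to 1080 in the VEGFR-1 TK-/- tagged libraries (log2 ratio -0.42, exact 2-sided permutation p = 0.0571), groups that overlap. All 5 were lower, against 50.3% of all genes tested. At an unadjusted p under 0.05, 4 were lower, against 5.64% of all genes. Smooth muscle markers lay at 547 to 1028 and 474 to 719 (log2 ratio -0.13), and cardiomyocyte markers at 55491 to 87276 and 71901 to 89463 (0.09). Fibroblast, leukocyte, platelet and atrial sums had log2 ratios of -0.23, -0.28, -0.32 and -0.30, and the Schwann cell sum one of 0.24, each with overlapping groups. Every marker had counts in all 8 libraries except the atrial *Sln*, which was at 0 in some. The part of these markers in the values of *Nos3*, *Gucy1b1*, *Irag1* and *Pde9a* was not tested, other than the ratio of *Nos3* to the endothelial sum.

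The genes whose log2 normalized CPM followed *Pde9a* most closely over the 8 libraries were *Slc17a9* (Pearson r 0.97), *Nol4l* (0.95) and *Dchs1* (0.95), of 23 genes with an r above 0.9. This is a description, because the libraries share the group difference and *Slc17a9* rests on 14 to 25 reads per library. Their log2 fold changes were -0.31, -0.43 and -0.46, and none was called (FDR 0.742, 0.468 and 0.453).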

How the data were processed

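RNA of LVs was sequenced in 8 libraries. Per the labels, ribosomal RNA was depleted, whereas the methods of the study describe poly-A selection and a stranded kit. The authors trimmed reads with Trim Galore 0.4.4 after bcl2fastq 2.20.0.422, aligned them to GRCm38 with STAR 2.5.4b and assigned them to genes of GENCODE M16 with featureCounts. They deposited whole-number counts per gene without normalization, and all columns were used. Whether strand was used, and how reads with several alignments were counted, is not given in the sources used here. Without strand, reads from exon bases shared with an antisense gene could be added to a gene or left uncounted, depending on these settings. Of 46040 identifiers, 849 are missing from GENCODE M21 (GRCm38), which gave coordinates, exon lengths and sequences.

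Counts were normalized with TMM factors (0.917 to 1.12), filtered (CPM of 1 or more in 2 libraries or more), and tested with the quasi-likelihood test of edgeR 4.0.16 (R 4.3.3) over 8 libraries without covariates. Normalized CPM uses the TMM-adjusted library size, and log2 values a prior count of 2. At this depth, a CPM of 1 is 11 to 16 reads. Pairs of libraries within a group differed beyond sampling noise (chi-square per degree of freedom 6.77 to 49.9). Exact 2-sided permutation tests over 70 assignments, ratios, shares and figures were computed in Python 3.11.15 with SciPy 1.17.1. As alternatives, DESeq2 1.42.0, the likelihood ratio test, RLE factors, total counts, no filter, filterByExpr, a robust fit, each library left out, and the replicate number as a block were run.

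The members and lists were chosen with earlier results of these data known. Named genes are the members, *Flt1*, the 3 soluble guanylyl cyclase subunits, pathway genes with an unadjusted p under 0.05, and the 3 genes most like the member with the lowest p. Genes overlapping a member were named after their counts were seen.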

Additional observations from a re-analysis of the deposited data

Results flagged for a closer look

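In groups of 4 libraries, a value was singled out when its gap to the nearest other value, divided by the range of the group, exceeded Dixon's 95% critical value. Of 36 groups examined 4 were singled out. Chance singles out about 1 in 20 independent groups, but these share libraries and genes, so that the count cannot be set against that rate. Control-tagged replicate 1 had 3.07 normalized CPM of *Pde9a*, against 5.60 to 5.99 in the other 3 control-tagged libraries. VEGFR-1 TK-/- tagged replicate 2 accounts for the rest. It had 0.178 normalized CPM of *Nos1* where the other 3 libraries of its group had 0, which are 2 reads; beside 3 zeros any read would have been singled out. The log2 ratio of *Nos1* to *Nos3* rests on the same reads and was -7.55 in that library, against -9.29 to -9.00 in the others. Its share of *Pde2a* among the 5 phosphodiesterases was 74.4%, against 77.7% to 78.2%.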

How the results depend on the processing

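No member and no other pathway gene was called under any of 16 alternatives. Differences of *Nos3*, *Prkg1*, *Pde2a*, *Pde5a*, *Pde9a* and *Vasp* stayed negative in all of them: *Pde9a* between -0.89 and -0.58, *Nos3* between -0.43 and -0.22 with an unadjusted p under 0.05 in 12 of 16. The log2 fold change of *Pde1c* ranged from -0.06 to 0.15 when single libraries were left out, with -0.02 without control-tagged replicate 1, -0.06 without control-tagged replicate 2 and -0.00 without VEGFR-1 TK-/- tagged replicate 4. That of *Pde3a* ranged from -0.02 to 0.15, with the lowest value without control-tagged replicate 2. The log2 ratio differences with single libraries left out ranged from -0.18 to 0.02 for *Nos3* over endothelial markers, from -0.52 to 0.07 for *Prkg1* and from -0.33 to 0.05 for *Pde5a* over smooth muscle markers, and that of the *Pde2a* share from -1.65 to 0.270 percentage points. They were above 0 without control-tagged replicate 2 (*Prkg1*, *Pde5a* and *Pde2a*) or without VEGFR-1 TK-/- tagged replicate 2 (*Nos3*, and *Pde2a* at 0.126). The other ratio and the other shares kept their sign. The cause was not tested. Between 1 and 3 members had an unadjusted p under 0.05 when single libraries were left out, against 2 with all of them, and 1 without VEGFR-1 TK-/- tagged replicate 1 or 2. An equal count can hold other genes. Without control-tagged replicate 3, *Vasp* had an unadjusted p of the quasi-likelihood test of 0.0427 and *Nos3* one of 0.0776. Without VEGFR-1 TK-/- tagged replicate 4, these were 0.0422 and 0.0508. Over all genes, 1 gene was called by the quasi-likelihood test, 53 by the likelihood ratio test, 23 when the filter on low counts was lifted, 32 by DESeq2, and up to 3 with a library left out (2 without control-tagged replicate 1, 3 without replicate 2 or 4), at the lowest 1. Without *Pde6d* in the sum, the level share of *Pde2a* was 37.1% in place of 32.6%.

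Same-numbered libraries had correlations of their deviations from the group means of -0.0555 to 0.343 over 4 pairs. For libraries with different numbers, these correlations were -0.494 to 0.302. With ranges this wide, the values cannot tell whether the replicate numbers pair the libraries. With the replicate number as a block, 0 members, 0 other pathway genes and 1 gene overall were called, 2 members had an unadjusted p under 0.05, and the log2 fold changes were -0.33 for *Nos3*, -0.70 for *Pde9a*, -0.25 for *Prkg1*, 0.06 for *Pde1c*, -0.09 for *Pde2a*, 0.08 for *Pde3a*, -0.28 for *Pde5a* and -0.22 for *Vasp*. Depth limits *Nos1* (at most 5 reads) and *Prkg1* (at most 32 reads) most.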
